A study of Mus musculus with 10 samples.

Results

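The renin-angiotensin system genes described here were 8 genes taken by name from a table of 54532 genes, namely renin (Ren1), its substrate angiotensinogen (Agt), the angiotensin-processing peptidases Ace, Enpep and Mme, and the angiotensin receptors Agtr1a, Agtr1b and Agtr2. All 8 were found in the table. Counts of each were compared between obstructed kidneys of mice treated with PBS and with dimethyl malonate (DMM), a malonate ester that inhibits succinate dehydrogenase. The kidneys came from WT male mice on a C57BL/6 background, whose left ureter was tied off with a double ligature at 8 weeks of age (unilateral ureteral obstruction, UUO) and which were killed on day 14. In the DMM group 40 mg/kg was given by intraperitoneal injection every other day, and the other group was given PBS. Each group held 5 mice with a single library per kidney, and kidneys without obstruction were not analysed here. Library totals lay between 15722527 and 19475833 counts.

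Renin is released by juxtaglomerular cells of the afferent arteriole and cuts angiotensinogen to angiotensin I, which angiotensin-converting enzyme turns into angiotensin II. Angiotensin II raises blood pressure and sodium retention through its type 1 receptors, while the type 2 receptor is mostly a receptor of the developing kidney. In the kidney the brush border of the proximal tubule carries many of the peptidases that make or break down angiotensins, and the system is known as a driver of fibrosis after ureteral obstruction.

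Certain libraries stood apart from the rest. The group means deposited by the authors give no weight to PBS replicate 3 or to DMM replicate 1, and each of these lay with the opposite group in proximal tubule markers. The summed level of 16 proximal tubule markers was 4111, 4115, 10470, 1621 and 3107 in PBS replicates 1 to 5, as CPM, which is the count scaled by library size and TMM factor. In DMM replicates 1 to 5 it was 3121, 8304, 7179, 6062 and 10250 CPM. PBS replicate 3 was thus the highest of all 10 kidneys and DMM replicate 1 lay within the range of the remaining PBS kidneys. The summed level of 8 interferon-stimulated genes was between 1806 and 3272 CPM in the PBS kidneys, 2307 CPM in DMM replicate 1, and between 226.9 and 300.5 CPM in DMM replicates 2 to 5. Results are therefore given over all 10 libraries and over the 8 libraries without these 2. DMM replicate 4 differed in another way, by gene length. Tested genes were split by length into 5 groups of like size, and in DMM replicate 4 the median log2 level relative to the mean of the 10 libraries was -0.57 for the shortest (57 to 2080 bp) and 0.52 for the longest (7041 to 123179 bp). In the other 9 libraries these medians lay between 0.04 and 0.14 and between -0.09 and -0.04. Without it the remaining 7 of the 8 libraries gave 2410 called genes of 16828 tested by the rule stated below (6.71% higher and 7.61% lower in DMM), against 1042 over the 8, and the calls of each marker list over those 7 are given where they differ.

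**Figure D1:**
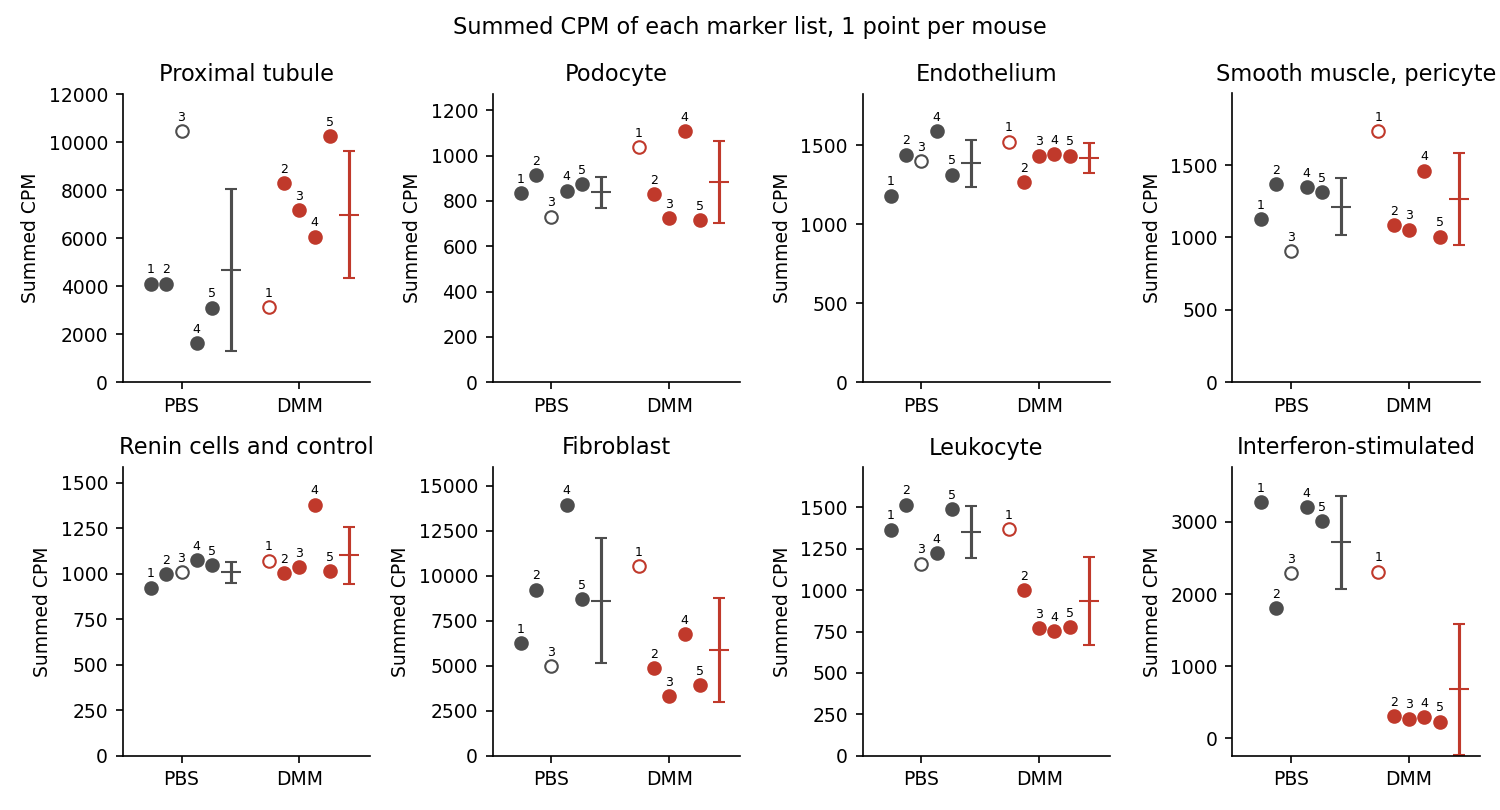
Summed CPM (y axis) of 8 marker lists in each kidney, by group (x axis), with numbers for replicates, open circles for PBS replicate 3 and DMM replicate 1, and bars for the mean and SD of 5 kidneys. PBS replicate 3 stands at 10470 CPM in the proximal tubule list and DMM replicate 1 at 2307 CPM in the interferon list.

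A gene was called when the adjusted p (Benjamini-Hochberg over all tested genes, edgeR's quasi-likelihood test) was under 0.05 and the fold change above 1.5. Of the 8 genes, 7 passed the count filter, all but Agtr1b. Over the 10 libraries 0 of these 7 were called, against 0% of 16505 tested genes. By unadjusted p under 0.05 with the same fold change 1 of 7 passed in edgeR's test, Agtr2, against 993 tested genes or 6.02%. An unadjusted p under 0.05 with any fold change was reached by 1798 genes (10.9%) in edgeR's test, among them the members Mme and Agtr2. DESeq2 called 50 genes over the same libraries but 0 of the 8. Over the 8 libraries 1 of 7 was called, Ace, against 1042 of 16550 tested genes (6.3%), with 452 (2.73%) higher and 590 (3.56%) lower in DMM. DESeq2 on the 8 libraries called 3 members, Ace, Mme and Agtr2, among 1660 genes. The number of genes that DESeq2 tested was not tallied, so that these 3 have no share beside them and are not read as a result. The CPM ranges of the groups did not overlap for 0 of 7 genes over the 10 libraries, where 1.95% of tested genes were separated. Over the 8 libraries they did not overlap for 4 of 7, Ace, Mme, Agtr1a and Agtr2, against 20.1% of tested genes in either direction and 9.45% with DMM the higher. For each of these 4 genes PBS replicate 3 was the highest PBS kidney and DMM replicate 1 the lowest DMM kidney. The count and the call of Ace are therefore not independent of leaving these libraries out. Agtr2 passed the filter mostly through the DMM group, in which it reached 10 counts in 4 of the 6 libraries that did so, so that it is not an independent addition to these counts.

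**Figure D2:**
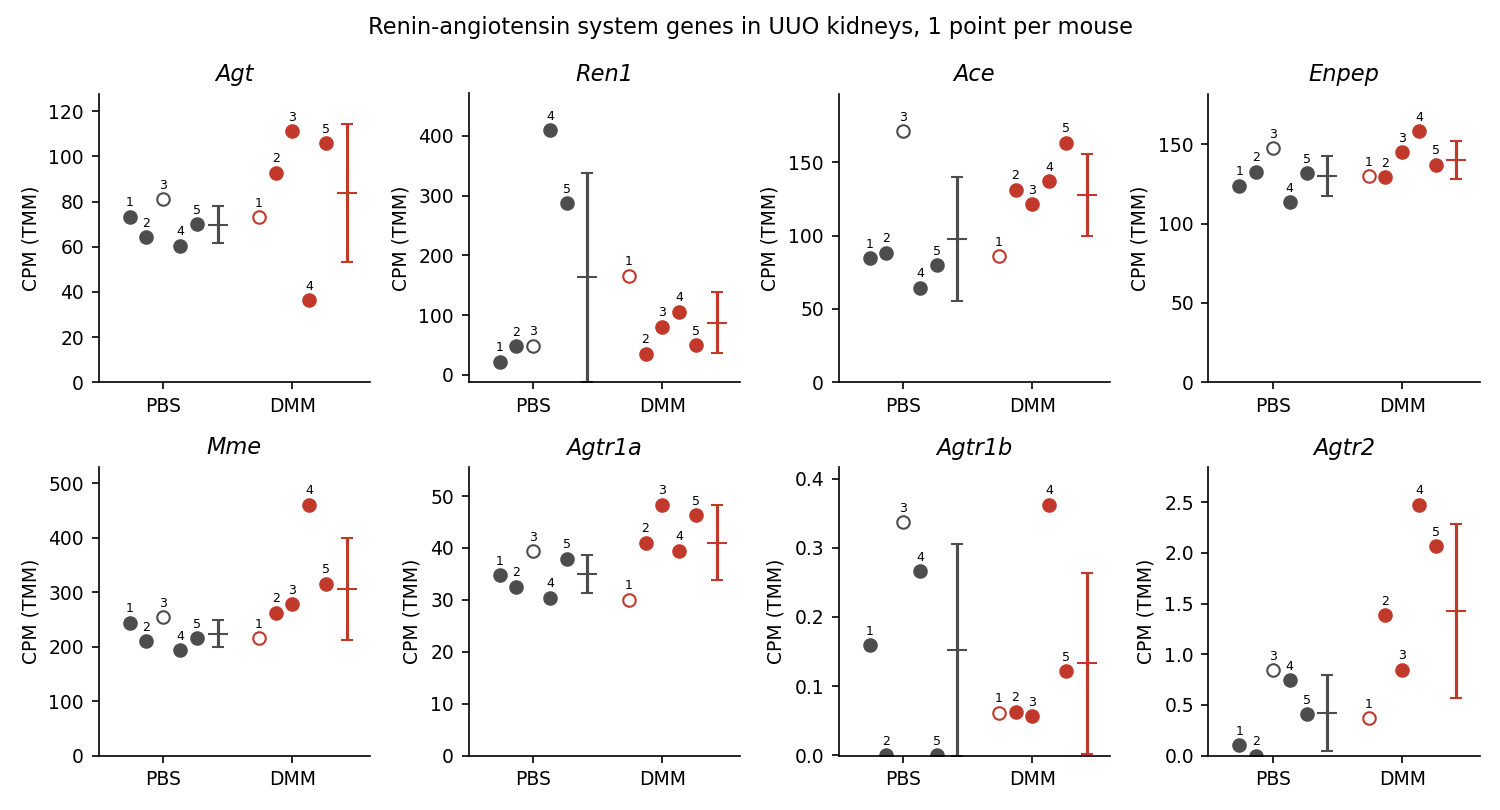
CPM (y axis, TMM-normalised) of the 8 renin-angiotensin system genes in each kidney, by group (x axis), with numbers for replicates, open circles for PBS replicate 3 and DMM replicate 1, and bars for the mean and SD of 5 kidneys. Ren1 spreads from 22.1 to 409.6 CPM among PBS kidneys, while Enpep stays between 113.4 and 158.3 CPM in all 10.

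Agt (ENSMUSG00000031980, chromosome 8, 124556534 to 124569706, minus strand of mm10, 1891 bp) encodes the only known precursor of the angiotensins. Its level was 73.2, 64.2, 81.1, 60.5 and 69.9 CPM in PBS replicates 1 to 5. In DMM replicates 1 to 5 it was 73.0, 92.8, 111.2, 36.2 and 105.8 CPM. DMM replicates 2, 3 and 5 exceeded every PBS kidney and DMM replicate 4 was below every one, so that the groups overlapped. The means were 69.8 ± 8.03 CPM in PBS and 83.8 ± 30.4 CPM in DMM (SD, n = 5), and the log2 fold change was 0.26 with a standard error of 0.25 (edgeR, adjusted p = 0.68). It was 0.37 over the 8 libraries (edgeR, standard error 0.30, adjusted p = 0.524). When DMM replicate 4 was left out as well, 7 libraries gave 0.63 with an adjusted p of 0.00125 in edgeR's test, and Agt was then called. Leaving out any other single library from the 10 or from the 8 did not make it a call, and over 19 alternatives to the fit of 10 libraries the adjusted p lay between 0.256 and 0.866. In that library Agt was lower than the mean of the other DMM kidneys by a log2 difference of -1.38, and the median gene of the same length group by -0.68. Ren1, of the same length group, was 0.60 higher there, and Enpep and Agtr2 were 0.23 and 1.22 higher where the median gene of their group was 0.13 lower. Ace differed by 0.17 and Agtr1a by -0.04, beside 0.16 and -0.42 for the median genes of their groups.

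Ren1 (ENSMUSG00000070645, chromosome 1, 133350510 to 133360325, plus strand, 1657 bp) encodes renin, whose cutting of angiotensinogen sets the pace of the pathway. In PBS replicates 1 to 5 it stood at 22.1, 48.6, 49.0, 409.6 and 287.0 CPM. In DMM replicates 1 to 5 it stood at 165.9, 35.5, 80.5, 105.6 and 49.9 CPM. PBS replicates 4 and 5 were the highest of all kidneys and PBS replicate 1 the lowest, and every DMM kidney fell within the PBS range. The ratio of the highest to the lowest PBS kidney was 18.5, against 4.67 among DMM kidneys. The SD of log2 CPM was 1.82 among PBS kidneys, above that of 99.8% of tested genes, and 0.87 among DMM kidneys, above 88.7%. The means were 163.2 ± 174.7 CPM in PBS and 87.5 ± 51.6 CPM in DMM (SD, n = 5), and the log2 fold change was -0.90 with a standard error of 0.75 (edgeR, adjusted p = 0.632). It was -1.50 over the 8 libraries (edgeR, standard error 0.81, adjusted p = 0.329). The adjusted p lay between 0.21 and 0.944 over the 19 alternatives to the fit of 10 libraries and between 0.163 and 0.687 when a further library was left out of the 8. The estimate hung on the 2 high PBS kidneys, since it was -0.22 without PBS replicate 4 and -0.59 without PBS replicate 5 among the remaining 9 libraries. Among the 5 PBS kidneys the SD of log2 CPM, 1.82, was larger than the size of the log2 fold change over 10 or over 8 libraries. Among the 5 DMM kidneys, at 0.87, it was not.

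The genes whose log2 CPM followed Ren1 most closely over the 10 libraries were Gja5, which encodes the connexin 40 of renin cells and endothelium, Il4ra and Stx12 (Pearson r = 0.94, 0.92 and 0.92). Gja5 ranged from 11.3 CPM in PBS replicate 1 to 25.2 CPM in PBS replicate 4, the same lowest and highest kidneys as for Ren1. Without PBS replicates 4 and 5 its r with Ren1 was 0.88 over 8 libraries, and that of Il4ra and Stx12 was 0.87 and 0.78. Akr1b7, a marker of renin-producing cells chosen here after its values were seen, was highest in PBS replicate 4, at 22.5 CPM, with DMM replicate 4 next, and lay between 1.58 and 4.47 CPM in the other 8 kidneys, PBS replicate 5 included. Its r with Ren1 was 0.64, or 0.32 without PBS replicates 4 and 5. A whole-kidney library does not tell more cells of a kind from more RNA per cell. Of a list of 16 genes for renin-producing cells, the macula densa and the control of renin, all 16 were tested and 0 were called over the 10 libraries. Over the 8 libraries 2 were called higher and 0 lower, the calcium-sensing receptor gene Casr (log2 fold change 0.92) and the vitamin D receptor gene Vdr (0.62). Without DMM replicate 4 as well, 2 were called higher and 2 lower over 7 libraries. Their median log2 fold change was -0.06 over 10, -0.15 over 8 and -0.23 over 7 libraries, and that of all tested genes 0.02, 0.02 and -0.01. The most abundant gene of the list was Prkar1a, and the summed level lay between 922.4 and 1074 CPM in PBS kidneys and between 1002 and 1380 CPM in DMM kidneys. Of all tested genes 2.73% were called higher and 3.56% lower over the 8 libraries. Within the list, r with Ren1 is given only for Gja5 and Akr1b7. Other genes went both ways in PBS replicate 4, where Gja4 was the highest of the 10 kidneys (13.6 CPM) and Casr and Vdr were the lowest (35.5 and 86.2 CPM). None of the 16 genes was at 0 in all libraries, and the part of these cells in the spread of Ren1 was not tested.

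Ace (ENSMUSG00000020681, chromosome 11, 105967945 to 105989964, plus strand, 5287 bp) encodes angiotensin-converting enzyme, which forms angiotensin II. It stood at 84.7, 88.4, 171.3, 64.4 and 79.8 CPM in PBS replicates 1 to 5. In DMM replicates 1 to 5 it stood at 85.9, 131.2, 121.6, 137.2 and 163.5 CPM. PBS replicate 3 was the highest kidney of all and DMM replicate 1 lay among the other PBS kidneys, so that the groups overlapped over 10 libraries and were separate over 8. The means were 97.7 ± 42.1 CPM in PBS and 127.9 ± 28.2 CPM in DMM (SD, n = 5), and the log2 fold change was 0.39 with a standard error of 0.26 (edgeR, adjusted p = 0.567). Over the 8 libraries Ace rose from 79.3 ± 10.6 to 138.4 ± 17.9 CPM (SD, n = 4), and the log2 fold change was 0.80 with a standard error of 0.14 (edgeR, adjusted p = 0.0124), with 4 of 4 DMM kidneys above every PBS kidney. Both left-out libraries bore on the call, since the log2 fold change was 0.69 (adjusted p = 0.264) without PBS replicate 3 alone and 0.50 (adjusted p = 0.323) without DMM replicate 1 alone (edgeR). Within the 8 libraries the adjusted p lay between 0.00215 and 0.0546 when a further library was left out, and the call was lost without PBS replicate 5 (log2 fold change 0.80, adjusted p = 0.0546, edgeR). Over all 19 alternatives to the fit of 10 libraries the log2 fold change of Ace was between 0.27 and 0.90, with an adjusted p between 3.39e-05 and 0.806.

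The 5 kidneys highest in Ace were also the 5 highest in summed proximal tubule markers. Of 16 such markers, 0 were called over the 10 libraries and 7 were called higher over the 8, namely Lrp2, Cubn, Slc5a12, Slc17a3, Slc13a3, Slc7a7 and Hnf4a. The count over the 8 libraries hung on DMM replicate 4, without which 15 of 16 were called higher over 7 libraries. Their median log2 fold change was 0.62 over 10 and 1.45 over 8 libraries, beside 0.02 for all tested genes, and 16 of 16 were above 0 in both. Their most abundant gene, Kap, stood between 587.1 and 4943 CPM in PBS kidneys and between 1076 and 4012 CPM in DMM kidneys, and none of the 16 was at 0. PBS replicate 3 was highest and PBS replicate 4 lowest both for Ace and for the summed tubule markers. The genes most like Ace over the 10 libraries were Arl6ip1, Keg1 and Oxct1 (Pearson r = 0.99, 0.98 and 0.98). The part of tubule cell content in the difference of Ace was not tested.

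Enpep (ENSMUSG00000028024, chromosome 3, 129269175 to 129332720, minus strand, 4706 bp) encodes aminopeptidase A, which turns angiotensin II into angiotensin III. It stood at 124.0, 132.7, 147.4, 113.4 and 131.9 CPM in PBS replicates 1 to 5 and at 130.0, 129.4, 145.0, 158.3 and 137.1 CPM in DMM replicates 1 to 5. The highest of the 10 kidneys was 1.4 times the lowest and the groups overlapped widely. The SD of log2 CPM was 0.14 in PBS kidneys, where 38.2% of tested genes had a smaller one, and 0.12 in DMM kidneys, where 6.26% did. The means were 129.9 ± 12.5 CPM in PBS and 140.0 ± 12.0 CPM in DMM (SD, n = 5), and the log2 fold change was 0.11 with a standard error of 0.10 (edgeR, adjusted p = 0.68). It was 0.18 (edgeR, standard error 0.11, adjusted p = 0.381) over the 8 libraries. Its adjusted p lay between 0.381 and 0.937 over the 19 alternatives to the fit of 10 libraries and between 0.226 and 0.663 when a further library was left out of the 8. The most similar genes were Ccdc85c, D630045J12Rik and Zfp2 (Pearson r = 0.96, 0.95 and 0.95 over 10 libraries). Without PBS replicate 4 and DMM replicate 4 these r were 0.88, 0.84 and 0.82.

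Mme (ENSMUSG00000027820, chromosome 3, 63241537 to 63386030, plus strand, 11542 bp) encodes neprilysin, a peptidase of the brush border that breaks down angiotensins, natriuretic peptides and bradykinin. It stood at 244.3, 209.9, 254.3, 194.1 and 215.9 CPM in PBS replicates 1 to 5. In DMM replicates 1 to 5 it stood at 216.1, 262.2, 278.0, 460.8 and 315.7 CPM. DMM replicates 2 to 5 were above every PBS kidney and DMM replicate 1 was among them, with DMM replicate 4 far above the rest. The means were 223.7 ± 24.9 CPM in PBS and 306.6 ± 93.3 CPM in DMM (SD, n = 5), and the log2 fold change was 0.45 with a standard error of 0.19 (edgeR, adjusted p = 0.429). It was 0.61 over the 8 libraries (edgeR, standard error 0.19, adjusted p = 0.0921), and DESeq2 gave 0.61 with an adjusted p of 0.0346 there. Without DMM replicate 4 the log2 fold change was 0.26 (adjusted p = 0.296) over 9 libraries and 0.40 (adjusted p = 0.0118) over the remaining 7 of the 8, below the fold change needed for a call (edgeR). In DMM replicate 4 Mme was 0.79 higher on the log2 scale than in the mean of the other DMM kidneys, and the median gene of its length group was 0.59 higher. Over the 19 alternatives to the fit of 10 libraries the adjusted p of Mme was between 0.0346 and 0.745. The genes most like Mme were Ndufaf4, Vldlr and the mitochondrial tRNA gene mt-Tc (Pearson r = 0.99, 0.98 and 0.98 over 10 libraries).

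Agtr1a (ENSMUSG00000049115, chromosome 13, 30336441 to 30382867, plus strand, 2786 bp) encodes the main type 1 angiotensin receptor of the mouse kidney. It stood at 34.7, 32.6, 39.4, 30.4 and 37.9 CPM in PBS replicates 1 to 5. In DMM replicates 1 to 5 it stood at 30.0, 41.0, 48.3, 39.5 and 46.3 CPM. DMM replicates 2 to 5 were above every PBS kidney, DMM replicate 4 by a small margin over PBS replicate 3, and DMM replicate 1 was the lowest kidney of all. The means were 35.0 ± 3.69 CPM in PBS and 41.0 ± 7.17 CPM in DMM (SD, n = 5), and the log2 fold change was 0.23 with a standard error of 0.14 (edgeR, adjusted p = 0.536). For the 8 libraries it was 0.37 (edgeR, standard error 0.12, adjusted p = 0.107), and the adjusted p lay between 0.0803 and 0.773 over the 19 alternatives to the fit of 10 libraries. When DMM replicate 4 was left out of the 8, the adjusted p was 0.00965 (edgeR) at a log2 fold change of 0.42, short of the fold change needed for a call. The genes most like Agtr1a were Prob1, Folh1 and Cpox (Pearson r = 0.97, 0.97 and 0.96 over 10 libraries).

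Agtr1b (ENSMUSG00000054988, chromosome 3, 20314473 to 20367177, minus strand, 2147 bp) encodes the close relative of Agtr1a, found mainly in the adrenal gland and brain. It had 3, 0, 6, 5 and 0 counts in PBS replicates 1 to 5 and 1, 1, 1, 6 and 2 counts in DMM replicates 1 to 5. These are 14 counts in PBS and 11 in DMM kidneys, and Agtr1a is a close paralog with which it may share reads. The difference of mean log2(CPM + 0.5) was -0.03 (exact two-sided permutation test, p = 0.865), and a difference was not detectable at this depth.

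Agtr2 (ENSMUSG00000068122, chromosome X, 21484544 to 21489164, plus strand, 3326 bp) encodes the type 2 receptor, which counters many actions of the type 1 receptor. Its counts were 2, 0, 15, 14 and 7 in PBS replicates 1 to 5 and 6, 22, 15, 41 and 34 in DMM replicates 1 to 5. In CPM this was 0.42 ± 0.37 in PBS and 1.43 ± 0.86 in DMM kidneys (SD, n = 5). DMM replicates 2 to 5 were above every PBS kidney, DMM replicate 3 by a small margin, and DMM replicate 1 was among the PBS kidneys. The log2 fold change was 1.74 (edgeR, standard error 0.72, adjusted p = 0.429) over 10 libraries and 2.38 (edgeR, standard error 0.76, adjusted p = 0.1) over 8. When a further library was left out of the 8, it lay between 1.98 and 3.25 (edgeR, adjusted p between 0.0544 and 0.231). DESeq2 gave 2.41 with an adjusted p of 0.0204 over the 8 libraries, the lowest of the 19 alternatives to the fit of 10 libraries, whose highest was 0.702. Over 9 libraries without DMM replicate 4 the log2 fold change was 1.45 (adjusted p = 0.328, edgeR). With at most 41 counts in a library, its level is known only roughly. The genes most like Agtr2 were Vti1b, Srp9 and Las1l (Pearson r = 0.97, 0.92 and 0.90 over 10 libraries). Without PBS replicates 1 and 2 these r were 0.93, 0.94 and 0.84.

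**Figure D3:**
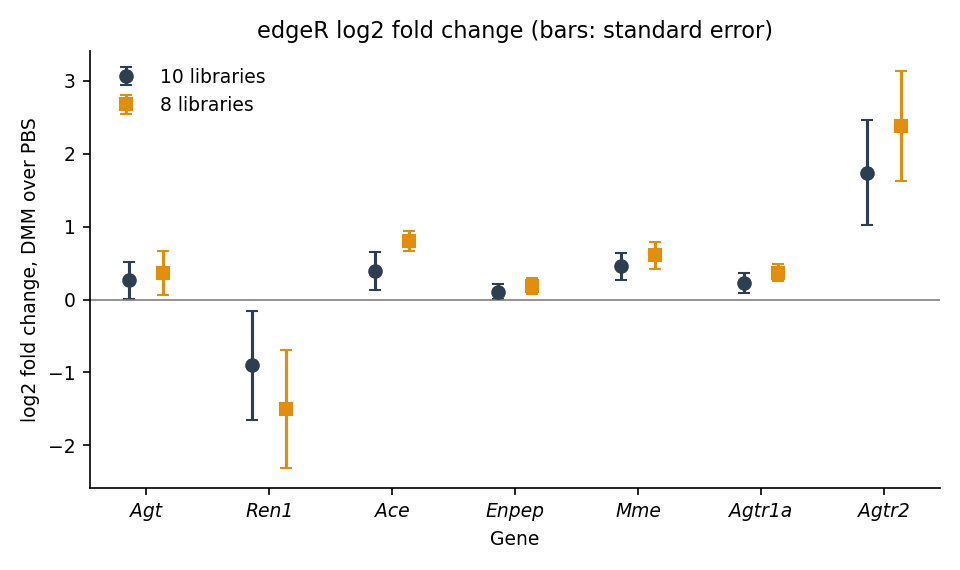
Log2 fold change of DMM over PBS (y axis) for each tested gene (x axis) from edgeR, over all 10 libraries (circles) and over the 8 libraries without PBS replicate 3 and DMM replicate 1 (squares), with bars for the standard error. Ace moves from 0.39 to 0.80 and Agtr2 from 1.74 to 2.38, while Ren1 is the single gene below 0.

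Levels of different genes were compared per length, by the FPKM that the authors deposited. By the median over 10 libraries the order was Ren1 (39.2 FPKM), Agt (38.4), Enpep (27.9), Mme (21.4), Ace (19.7), Agtr1a (13.8), Agtr2 (0.24) and Agtr1b (0.04 FPKM). Ren1 was above Agt in 4 of 10 libraries, since it ranged from 13.2 to 245.8 FPKM, and so has no settled place in the order. Agt was above Enpep and Enpep above Mme in 9 of 10 libraries each, DMM replicate 4 being the exception, and Mme was above Ace in 7 of 10. Ace was above Agtr1a in 10 of 10. Ranges of neighbours overlapped for every pair from Ren1 to Agtr1a. Agtr1a, the lowest of these at 10.7 to 17.3 FPKM, was far above Agtr2 (0 to 0.74 FPKM) in 10 of 10 libraries, and Agtr2 was above Agtr1b in 8 of 10.

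**Figure D4:**
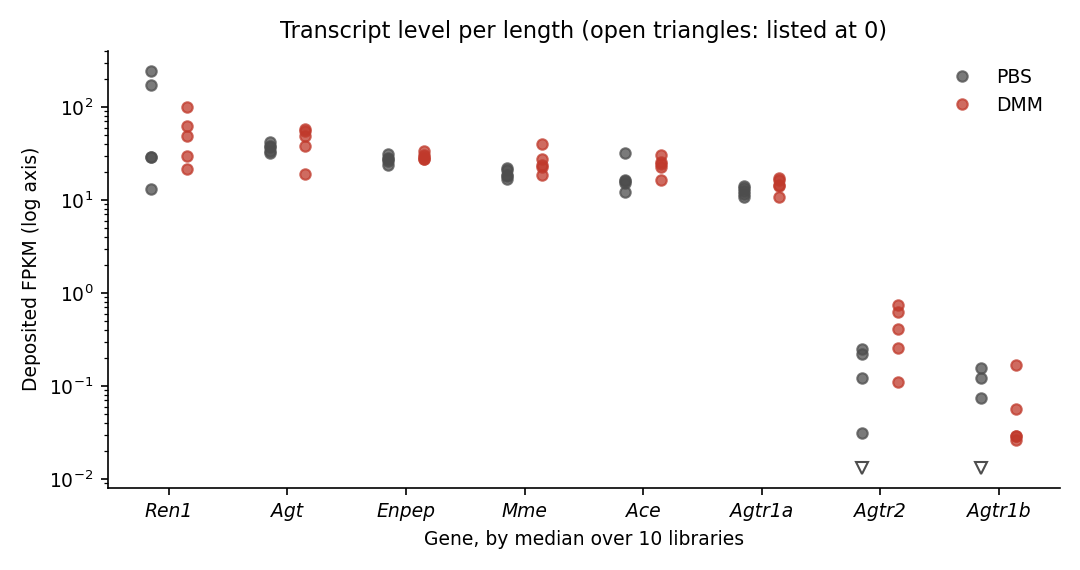
Deposited FPKM (y axis, log scale) of each gene (x axis, ordered by the median over 10 libraries) in PBS (grey) and DMM (red) kidneys, with 1 point per kidney and open triangles below the points where PBS kidneys are listed at 0. Genes from Ren1 to Agtr1a overlap, and Agtr2 and Agtr1b lie below 1 FPKM.

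The peptidases and the type 1a receptor varied together between kidneys. Over the 10 libraries the Pearson r of log2 CPM was 0.76 for Ace with Enpep, 0.69 for Ace with Mme, 0.78 for Enpep with Mme and 0.76 for Ace with Agtr1a. It was 0.60 for Enpep with Agtr1a and 0.60 for Mme with Agtr1a. Agt had r of 0.49 to Agtr1a, 0.28 to Ace, -0.15 to Enpep and -0.29 to Mme. These hung on DMM replicate 4, and over the 9 libraries without it the r of Agt was 0.91 to Agtr1a, 0.78 to Ace, 0.65 to Enpep and 0.94 to Mme. The other r given were then 0.79 for Ace with Enpep, 0.86 for Ace with Mme, 0.62 for Enpep with Mme and 0.76 for Ace with Agtr1a. Those of Agtr1a to Enpep and to Mme were then 0.68 and 0.89. Over the 10 libraries Ren1 had r below 0 with each of them, such as -0.53 to Ace, but 0.14 to Agtr2. These correlations join kidneys from both groups, and what sets the kidneys apart was not tested.

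Beyond the 8 genes, a list of 18 other genes of the pathway held receptors of renin and of angiotensin fragments, peptidases and other enzymes that act on angiotensins. Of these, 17 were in the table and 12 were tested, and 0 of 12 were called in either direction over 10 or over 8 libraries. In edgeR's test with an unadjusted p under 0.05 and a fold change above 1.5, 0 of 12 passed over both sets, against 6.02% and 13.7% of all tested genes. The (pro)renin receptor gene Atp6ap2 had a log2 fold change of 0.08 over 10 and 0.11 over 8 libraries, and Agtrap, whose product binds the type 1 receptor, had 0.01 and 0.05. Of the peptidase genes, Lnpep had 0.40 and 0.45, Anpep -0.14 and -0.02, Rnpep -0.26 and -0.37, Prcp -0.06 and -0.04, Prep 0.08 and 0.07, Thop1 0.12 and 0.14, and Nln 0.13 and 0.19, in the same order of libraries. The cathepsin genes Ctsd and Ctsb, whose enzymes can act on angiotensinogen, had 0.22 and -0.27 over 10 libraries and 0.27 and -0.36 over 8, and the kallikrein gene Klk1 had 0.27 and 0.40. Rnpep and Ctsb were, over the 8 libraries, lower in every DMM kidney than in every PBS kidney, and Nln was higher, without a call, which makes 3 of 12 against the 20.1% of all tested genes whose groups did not overlap there. DMM replicate 4 stood apart for Lnpep, at 492.5 CPM against 175.3 to 207.1 CPM in the other 9 kidneys, and without it the log2 fold change of Lnpep was 0.00 over 9 libraries and -0.05 over 7 of the 8. In the same order of libraries Atp6ap2 then had 0.02 and 0.03, Agtrap 0.09 and 0.16, Anpep -0.07 and 0.09, Rnpep -0.25 and -0.37, Prcp -0.10 and -0.08, Prep -0.06 and -0.10, Thop1 0.07 and 0.11, Nln 0.12 and 0.19, Ctsd 0.30 and 0.39, Ctsb -0.21 and -0.29, and Klk1 0.46 and 0.63, and 0 of 12 were called over either set. The median of the 12 was 0.08 over 10 and 0.09 over 8 libraries, and 0.02 for all tested genes, and without DMM replicate 4 it was 0.01 over 9 and 0.06 over 7 libraries. The receptor gene Mas1 stood between 0.43 and 1.01 CPM, and Mrgprd, Cma1, Cpa3 and Ctsg, the last 3 being genes of mast cells or neutrophils, had at most 4 counts in a library, with Mrgprd at 0 in all 10. The most abundant was Ctsb, and the summed level of the list lay between 2826 and 3013 CPM in PBS and between 2666 and 3096 CPM in DMM kidneys.

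Of 18 genes that respond to the type 1 receptor or to aldosterone, all were tested, 0 were called over 10 libraries and 1 over 8, the NADPH oxidase gene Nox4 (log2 fold change 0.83, adjusted p = 0.0382, edgeR). Their median was 0.04 over 10 and 0.08 over 8 libraries, and the most abundant was Spp1 at a mean of 14340 CPM. Without DMM replicate 4 as well, 3 were called higher and 4 lower over 7 libraries. Of 20 genes of the natriuretic peptide, endothelin, kinin, nitric oxide and vasopressin pathways, 15 were tested and 0 were called over 10 libraries. Among the 8 libraries 2 were called higher, the bradykinin receptor gene Bdkrb2 (log2 fold change 0.86) and the kininogen gene Kng1 (1.03), and 1 lower, the endothelin receptor gene Ednra (-0.76). These counts were 4 higher and 3 lower over the 7 libraries without DMM replicate 4. Their median was 0.01 over 10 and -0.01 over 8 libraries, and the most abundant was Gucy1a1. Kng1 has a close paralog, Kng2, with which it may share reads. Of all tested genes 2.73% were called higher and 3.56% lower over the 8 libraries, and 6.71% and 7.61% over the 7.

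The remaining marker lists give the tissue in which these levels stood. Of all tested genes 2.73% were called higher and 3.56% lower over the 8 libraries, and 6.71% and 7.61% over the 7 without DMM replicate 4. Of 8 podocyte and 10 endothelial genes, 0 were called over either set, with medians of 0.08 and 0.00 over 10 libraries and -0.04 and -0.04 over 8. Of 9 smooth muscle and pericyte genes, 2 were called lower over the 8 libraries, Myh11 and Cnn1, with a median of 0.04 over 10 and -0.43 over 8. Of 8 fibroblast genes, 4 were called lower over the 8 libraries, Col1a2, Lum, Postn and Fbln1. Their median was -0.59 over 10 and -1.09 over 8 libraries, and 6 were called lower over the 7 without DMM replicate 4. Of 8 leukocyte genes, 1 was called lower over the 8 libraries, Cd68, and 4 were called lower over those 7. Their median was -0.60 over 10 and -0.78 over 8 libraries. All 8 interferon-stimulated genes (Oasl1, Ifit1, Ifit3, Isg15, Irf7, Rsad2, Usp18 and Ifi44) were called lower over the 8 libraries and 0 over the 10. Their median was -1.99 over 10 and -3.53 over 8 libraries. DMM replicate 1 was the highest DMM kidney in the smooth muscle, fibroblast, leukocyte and interferon lists and the lowest in the proximal tubule list, and PBS replicate 3 was the lowest PBS kidney in the first 3 and the highest in the last, so that calls over the 8 libraries are not independent of leaving these 2 out. The most abundant genes of these lists were Podxl, Eng, Mylk, Col3a1, Lyz2 and Irf7, and none of their genes was at 0 in all libraries. The summed fibroblast level was highest in PBS replicate 4 at 13950 CPM, the kidney with the highest Ren1 and the lowest Ace, and lowest in DMM replicate 3 at 3294 CPM. Whether tissue makeup has a part in the values of the 8 genes was not tested.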

How the data were processed

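One library was sequenced per obstructed kidney. The authors aligned reads to mm10 and deposited read counts per gene (HISAT2 2.0.5 per the submitters' processing notes). Counting tool, annotation and strand setting are not given in the sources used here. The authors also deposited FPKM values, used for levels between genes, and group means as a signal of counts over size factors, used to see which libraries entered them. Their fold changes and p-values were not used. Counts were filtered (filterByExpr), scaled by TMM and fitted by edgeR 4.0.16 in R 4.3.3 (quasi-likelihood F test, Benjamini-Hochberg over all tested genes), with DESeq2 1.42.0 as an alternative. Standard errors were derived from the F statistic. Pearson r used log2 CPM with a prior count of 2. Agtr1b, at log2(CPM + 0.5), had exact permutation tests, whose smallest p is 0.00794 for 5 against 5 and 0.0286 for 4 against 4. Python 3.11.15 gave summaries and plots. The steps were tested on simulated counts.

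Genes named were the 8 members, the 17 pathway genes in the table, and the 3 genes most correlated with each tested member except Agt. Of each other list, the most abundant gene and every gene called over 10 or 8 libraries were named. Members and lists were chosen with earlier results of these data known. Akr1b7, Gja4, Ptgs2, leaving libraries out of the 8, and list and pathway values without DMM replicate 4 were added after seeing the data. Reads of overlapping genes may be included, namely Gm42628 (at most 10 counts) in Enpep, Gm48161 (at most 4) in Agtr1a and Gm11651 (0) in Ace.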

Additional observations from a re-analysis of the deposited data

Results flagged for a closer look

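Single kidneys lay far from the rest of their group in 6 of 38 groups of values. Each had a gap to its nearest neighbour above 0.71 of the range of its 5 kidneys. PBS replicate 3 did so for Ace, at 171.3 CPM, and for the summed proximal tubule markers, at 10470 CPM. DMM replicate 1 did so for the summed interferon-stimulated genes, at 2307 CPM. DMM replicate 4 did so for Agtr1b, at 0.362 CPM from 6 counts, and for the summed list of renin cells and renin control, at 1380 CPM. In that sum Prkar1a stood at 519.1 and Ptgs2 at 162.5 CPM, against at most 410.9 and 37.9 CPM in the other kidneys. PBS replicate 1 lay far from the rest for the summed list of vasoactive pathways, at 922.4 CPM, where the 5 PBS kidneys lay close together. Ren1 in the PBS group was not among them, because 2 of the 5 kidneys were high.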

How the results depend on the processing

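Of 192 recomputed fold changes and differences, 184 kept their direction and their side of the threshold. Of 87 recomputed counts of called genes, 70 were equal to the main count or within 1.5 times it. Many of these counts were 0 in both fits, and many of the fold changes were of genes uncalled in both, so that these tallies say little about stability. Over all 10 libraries 0 genes were called by edgeR, and 1042 without PBS replicate 3 and DMM replicate 1, among them 1 of the 8 members in place of 0. DESeq2 called 50 genes over 10 libraries and 1660 over 8, with 3 members in the latter, for which no share of tested genes was tallied. Without adjustment of p, at the same fold change, edgeR took 993 genes and 1 member. Leaving out each library in turn gave 0 to 486 genes, the latter without DMM replicate 1, and 0 members throughout. Within the 8 libraries, leaving out a further one, chosen after seeing the data, gave 407 genes (without PBS replicate 5) to 2410 (without DMM replicate 4), and 0 to 2 members. RLE factors, library size alone and other count filters left 0 genes called, as did an adjusted p under 0.05 with no fold change.

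The log2 fold change of Ace was 0.80 over the 8 libraries both by edgeR and by DESeq2, and 0.71 to 0.86 when a further library was left out. DESeq2 over the 8 libraries also passed Mme at 0.61 and Agtr2 at 2.41. Agt lay between 0.22 and 0.63 within the 8 libraries, and among the single leave-outs from the 10 or from the 8 it was called only without DMM replicate 4 of the 8. The sign of Agtr1b turned from -0.03 to 0.0061 with a pseudocount of 0.1 and to 0.10 over the 8 libraries, at p = 0.984 and 0.629 in exact permutation tests. The cause of these shifts was not tested.

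With the replicate number as a replicate block, 0 genes were called over 10 libraries and 0 over the 3 numbers that both groups keep among the 8. Deviations of same-numbered kidneys from their group means had correlations of -0.06, 0.08, 0.34, 0.12 and -0.22, so that the numbers were not taken as pairs. Depth limits Agtr1b and Agtr2, which had at most 6 and 41 counts in a library. The 8 libraries are part of the 10, so that neither set is an independent check of the other.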
